A study of Mus musculus with 16 samples.

Results

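Skeletal muscle fiber genes encode the contractile filaments, calcium release units and fiber enzymes of voluntary muscle, and they were followed here in mouse left ventricle and subcutaneous white adipose tissue (scWAT). The 36 genes were taken by name from tables of 33641 gene symbols, and all 36 were listed. The rule that selects them names no measured value, but the members were chosen with earlier results of these data known. Counts of members set beside shares of all genes are therefore descriptions. They were ordered by role into 5 myosin heavy chains, 3 light chain genes including a light chain kinase, 4 troponins, 10 filament and Z-disc genes, 9 genes of the triad and calcium handling, and 5 metabolic, regulatory and proteolytic genes. Whole tissue RNA was sequenced from C57BL/6J mice aged 28 weeks, either wild-type or labelled Adipo-HuR KO, a deletion of the RNA-binding protein HuR aimed at adipocytes alone. The promoter that drives the deletion was not given in the sources used here. The scWAT libraries were A5, A7, A8, A12 and A14 from wild-type mice (n = 5) and A24, A26 and A30 labelled knockout (n = 3). The heart libraries were A5, A7, A8 and A14 from wild-type mice (n = 4) and A25, A29, A30 and A31 labelled knockout (n = 4). The 16 libraries came from 11 mice, and 5 of these mice (A5, A7, A8, A14 and A30) gave both tissues. Abundance is in TPM, a unit scaled to transcript length and to the same total in each library, so depth is unknown.

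In skeletal muscle, fast fibers use the myosins encoded by Myh4, Myh1 and Myh2, slow fibers use the one encoded by Myh7, and the troponins, light chains and calcium pumps have fast and slow forms as well. Depolarization of the transverse tubule is sensed by the channel encoded by Cacna1s, which opens the calcium release channel encoded by Ryr1 where the tubule meets the sarcoplasmic reticulum, a contact called the triad. Adipocytes have no sarcomeres, and the heart builds its sarcomeres mostly from cardiac and slow isoforms, so many of these genes are known as markers of skeletal muscle against both tissues. Fast fiber genes are switched on by myogenic factors that bind E-boxes, together with MEF2 and, at some genes, serum response factor, which binds CArG boxes.

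Promoters of some of the members described below are shown as examples, to place these motifs in sequence. Not every member had a match, since the windows of Ryr1 and Myh2 held no E-box, MEF2 match or CArG box. Of the 36 members, 22 matched RefSeq promoters of build GRCm38.p6, in 27 windows of 250 bases ending at the base before the transcription start. Capitals mark matches to the E-box CANNTG, to the MEF2 motif or to the CArG box, on either strand. The windows are chr11:67237562-67237811 on the plus strand for Myh4, chr7:127211358-127211607 on the plus strand for Mylpf, chr7:126463074-126463323 on the minus strand for Atp2a1, chr2:69669870-69670119 on the plus strand for Klhl41 and chr1:136052561-136052810 on the plus strand for Cacna1s.
Myh4: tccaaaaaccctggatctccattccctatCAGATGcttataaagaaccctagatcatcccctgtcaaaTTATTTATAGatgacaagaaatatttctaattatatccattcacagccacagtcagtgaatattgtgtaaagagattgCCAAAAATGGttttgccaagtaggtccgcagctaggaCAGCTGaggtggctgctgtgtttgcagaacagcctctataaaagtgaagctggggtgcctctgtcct
Mylpf: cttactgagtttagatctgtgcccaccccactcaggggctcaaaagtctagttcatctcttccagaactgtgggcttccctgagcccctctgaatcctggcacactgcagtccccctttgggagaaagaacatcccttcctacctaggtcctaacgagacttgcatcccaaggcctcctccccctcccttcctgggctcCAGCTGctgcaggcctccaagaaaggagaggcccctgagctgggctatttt
Atp2a1: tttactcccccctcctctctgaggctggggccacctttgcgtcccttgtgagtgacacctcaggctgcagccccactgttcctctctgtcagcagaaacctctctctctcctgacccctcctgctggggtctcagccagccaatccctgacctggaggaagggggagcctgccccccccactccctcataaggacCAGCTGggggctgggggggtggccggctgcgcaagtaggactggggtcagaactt
Klhl41: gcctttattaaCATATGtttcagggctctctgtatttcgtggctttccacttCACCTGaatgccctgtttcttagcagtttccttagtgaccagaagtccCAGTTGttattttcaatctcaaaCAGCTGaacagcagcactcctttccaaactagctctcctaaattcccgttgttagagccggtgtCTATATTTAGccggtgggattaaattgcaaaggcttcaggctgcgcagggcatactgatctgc
Cacna1s: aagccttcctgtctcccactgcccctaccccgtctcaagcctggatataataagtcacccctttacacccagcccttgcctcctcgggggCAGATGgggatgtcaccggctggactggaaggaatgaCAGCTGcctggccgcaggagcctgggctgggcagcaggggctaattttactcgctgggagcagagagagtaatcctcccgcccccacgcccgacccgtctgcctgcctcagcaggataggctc
The Myh4 window held 2 E-boxes, 1 MEF2 match and 1 CArG box, and the Klhl41 window held 4 E-boxes and 1 MEF2 match. Mylpf and Atp2a1 each held 1 E-box of the form CAGCTG, and Cacna1s held 2 E-boxes, 1 of that form. CANNTG was in 77.8% of the 27 windows (19 of 22 members) and in 66.2% of all 32851 RefSeq windows of the same length. The CAGCTG form was in 33.3% of the windows against 13.0% of all windows. The MEF2 motif was in 25.9% (Asb5, Capn3, Klhl41, Myh1, Myh4, Myh8 and Pvalb) against 2.92%, and the CArG box in 11.1% (Asb2, Asb5 and Myh4) against 1.47%. TATAAA, which read on the other strand can lie inside a MEF2 match, was in 25.9% against 12.4%, and CAGCTG is a special case of CANNTG. These matches describe the letters of the windows and are not evidence of binding.

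Before the members are described, 3 facts about the libraries bear on every value. Elavl1, which encodes HuR, stood at 19.0 to 34.5 TPM in wild-type scWAT and at 36.2 to 42.9 TPM in scWAT labelled knockout, so this transcript gave no check of the genotype labels. Its log2 fold change of 0.61 (SE 0.223) had an adjusted p of 0.256 (limma). In the A29 heart, labelled knockout, Nppa, the natriuretic peptide gene, stood at 52.7 TPM against 5021 to 6980.4 TPM in the other hearts of that label. Tissue identity was as labelled, since the adipocyte gene Adipoq was at 3299.8 to 6919.5 TPM in scWAT and at most 1.72 TPM in heart, while the cardiomyocyte gene Myh6 was at 1012 to 4769 TPM in heart and at most 0.146 TPM in scWAT. Among the scWAT libraries, the deposited tables of A5, A14 and A24 carry the genotype in their names and the others do not.

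Skeletal muscle fiber transcripts were present at very different levels in the 8 scWAT libraries. Summed over the 36 members, abundance was 246 TPM in A5, 1221 in A7, 205 in A8, 152 in A12 and 149 in A14, and in the libraries labelled knockout it was 4635 TPM in A24, 449.9 in A26 and 9977 in A30. These sums were 0.0149% to 0.122% of all TPM in wild-type scWAT and 0.464%, 0.0450% and 0.998% in A24, A26 and A30. A30 and A24 stood far above the rest, the wild-type library A7 came next and stood above A26, and the groups overlapped through A7 and A26. Of the members, 27 reached 10 TPM in A30, 25 in A24, 12 in A7, 8 in A26 and 5 in A8, against 1 each in A5, A12 and A14, where that gene was Myl1. In bulk tissue, fewer cells of a type and less RNA per cell cannot be told apart.

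**Figure D1:**
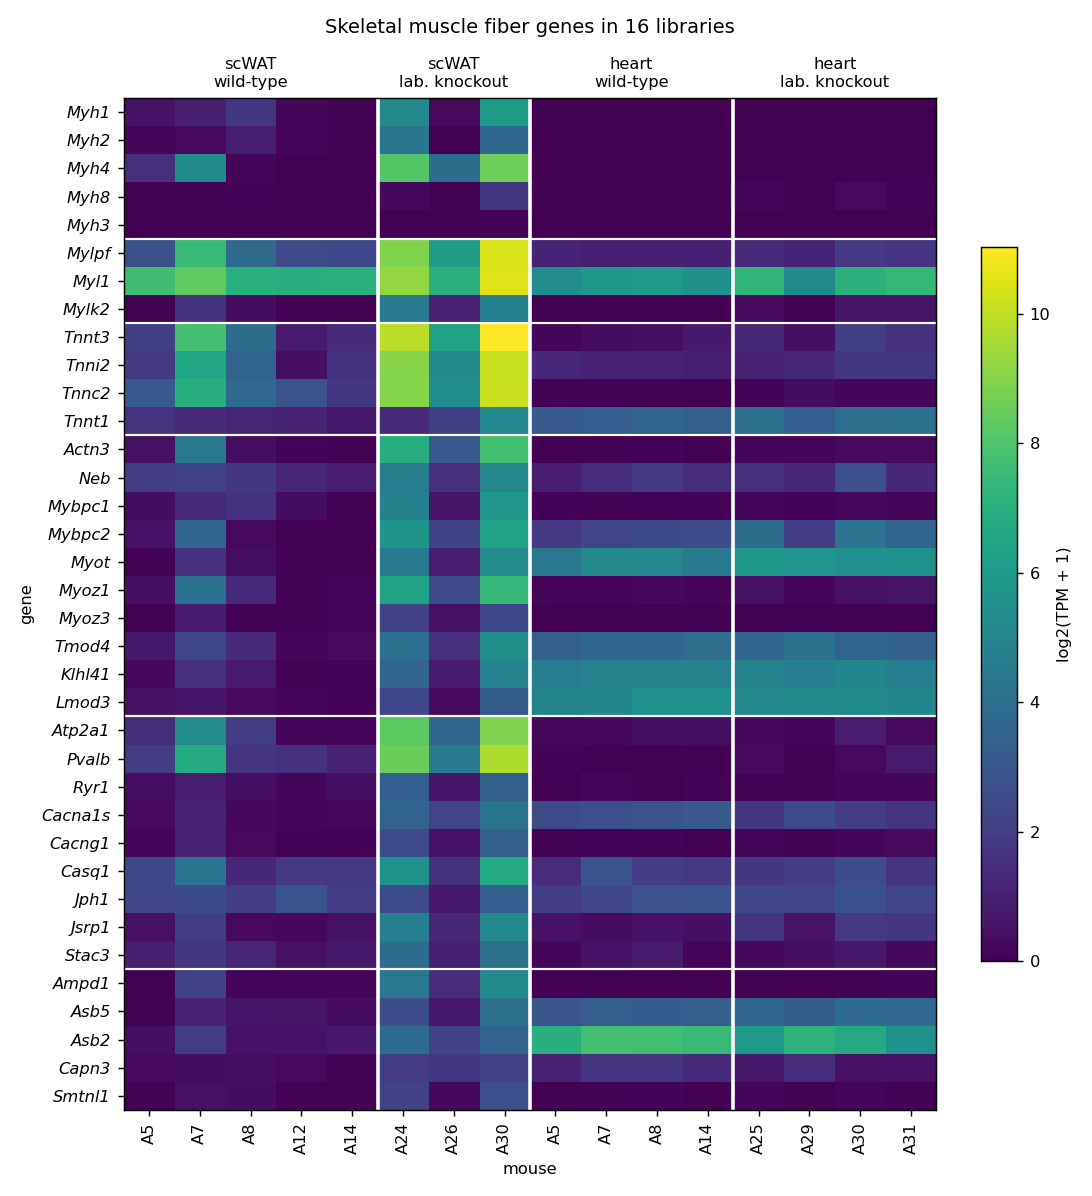
Abundance of each of the 36 members (rows, grouped by role) in each of the 16 libraries (columns, grouped by tissue and genotype label), coloured by log2(TPM + 1). The scWAT columns A24 and A30 are the most intense for most members, A7 and A26 are intermediate, and in heart Asb2 and Myl1 are the most intense rows.

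**Figure D2:**
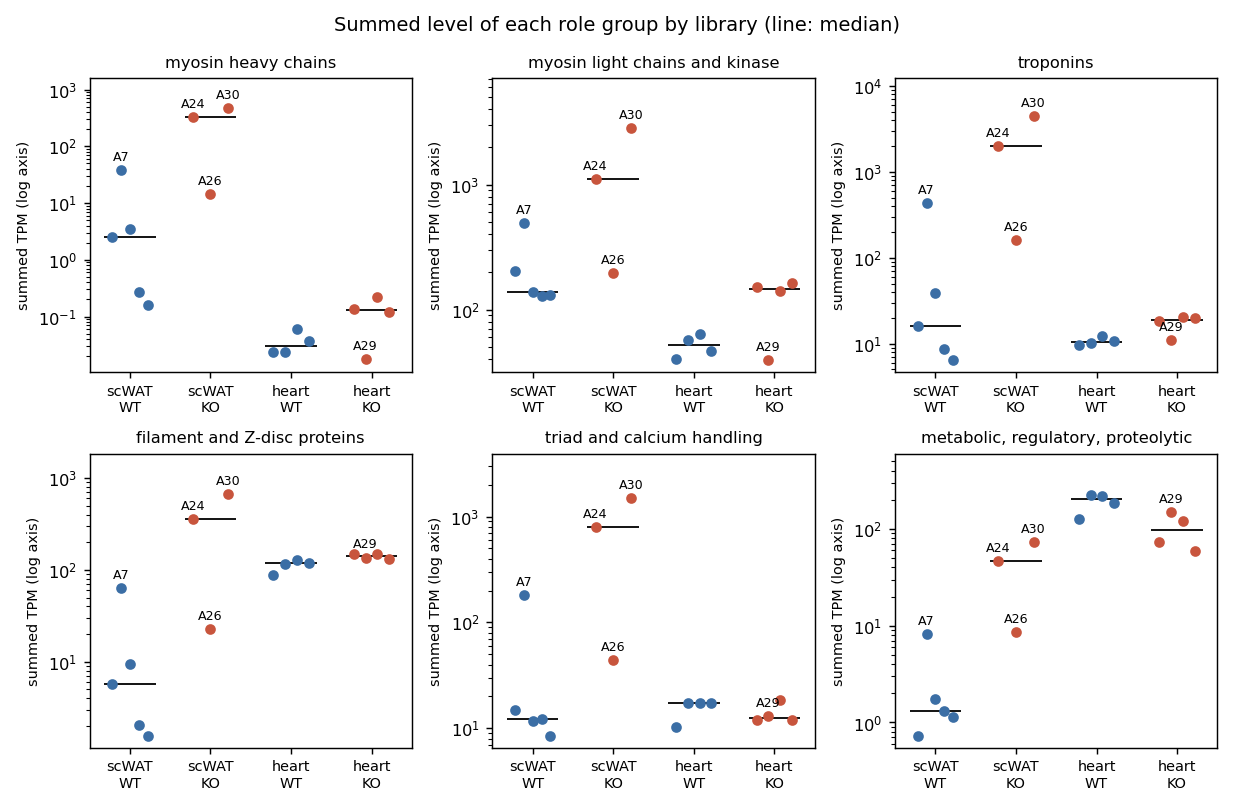
Summed TPM of the members of each role group on a log axis, with 1 point per library, by tissue and genotype label. In scWAT, A30 and A24 are above the other libraries in each of the 6 groups, and A7 is above the other 4 wild-type libraries in each.

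The myosin heavy chains carried the fast fiber signal. Myh4, the fast IIb myosin, stood at 1.91, 37.2, 0.124, 0 and 0.0143 TPM in wild-type scWAT (here and below in the order A5, A7, A8, A12, A14), against 270.2 (A24), 13.9 (A26) and 389.9 TPM (A30). Myh1, the IIx form, was at 0.447, 0.969, 2.42, 0.131 and 0.0569 TPM in wild-type scWAT, against 35.7 (A24), 0.210 (A26) and 66.9 TPM (A30). For Myh2, the IIa form, the wild-type libraries held 0.106, 0.225, 0.876, 0.0995 and 0.0562 TPM, and A24, A26 and A30 held 19.2, 0.0257 and 11.8 TPM. A24 and A30 were high for all 3 genes, while A26 was high for Myh4 and lay among the wild-type values for Myh1 and below them for Myh2. The log2 fold changes on the log2(TPM + 1) scale were 5.47 (SE 1.41, adjusted p = 0.216) for Myh4, 3.14 (SE 1.13, adjusted p = 0.256) for Myh1 and 2.37 (SE 0.833, adjusted p = 0.251) for Myh2 (limma, Benjamini-Hochberg over all genes), and none passed. The developmental myosins were low: Myh8 (perinatal) was at 2.42 TPM in A30 and at most 0.184 TPM elsewhere in scWAT, and Myh3 (embryonic) was at most 0.0402 TPM.

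The mixture of myosins differed between libraries. As a share of the summed TPM of 7 sarcomeric heavy chain genes (the 5 members with Myh7 and Myh6), Myh4 made up 83.0% in A24, 81.2% in A30, 96.5% in A7 and 96.6% in A26. A8 was unlike these, with Myh1 at 67.9%, Myh2 at 24.5% and Myh4 at 3.48% of a sum of 3.57 TPM. In A5, Myh4 made up 68.7% of 2.78 TPM, and in A12 and A14 the sums were 0.364 and 0.273 TPM, where a share rests on very few transcripts. These myosins share sequence, since 18.9% to 26.9% of the 50-base stretches of the Myh4, Myh8, Myh1 and Myh2 transcripts (GENCODE M21) are also found in another gene, so the split of reads between them is uncertain.

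**Figure D3:**
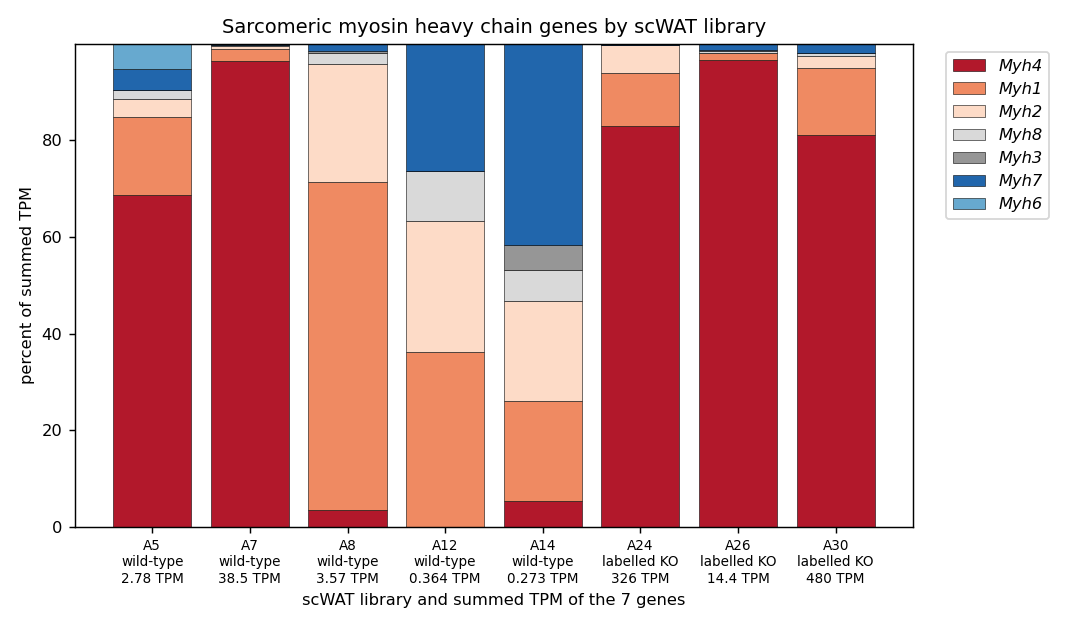
Share of the summed TPM of 7 sarcomeric myosin heavy chain genes (percent, stacked bars) in each scWAT library, with the summed TPM written under each bar. Myh4 is the largest share in A5, A7, A24, A26 and A30, and Myh1 is the largest in A8.

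Light chain genes were likewise highest in A30 and A24, with Myl1 on a high base in every library. Mylpf, the fast regulatory light chain, was at 5.62, 172, 13.1, 4.91 and 4.23 TPM in wild-type scWAT, against 486 (A24), 68.3 (A26) and 1358 TPM (A30). Myl1, the fast essential light chain, was at 200.3, 322, 126, 123 and 127 TPM in wild-type scWAT, against 606 (A24), 129 (A26) and 1471 TPM (A30). Mylk2, the skeletal muscle light chain kinase, was at 28.1 TPM in A30, 20.9 in A24, 2.09 in A7, 1.02 in A26 and at most 0.272 TPM in the other 4. A26 was above 4 of the 5 wild-type libraries for Mylpf and Mylk2 but within their range for Myl1. Of the 50-base stretches of the Myl1 transcript, 23.4% are shared with the pseudogene Mylf-ps, so the level of Myl1 is uncertain in a way that Mylpf, with 0% shared, is not.

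Among the fast troponins, Tnnt3 reached the highest level of any member. This gene of fast troponin T was at 3.20, 214, 13.8, 0.723 and 1.46 TPM in wild-type scWAT, against 941 (A24), 80.9 (A26) and 2104 TPM (A30). The inhibitory subunit gene Tnni2 was at 2.68, 94.5, 10.9, 0.362 and 2.06 TPM in wild-type scWAT, against 525 (A24), 37.6 (A26) and 1116 TPM (A30). Tnnc2, the calcium-binding subunit, was at 7.96, 123, 12.8, 6.33 and 2.32 TPM, then 523, 40.0 and 1149 TPM, in the same order. For each of these 3 genes the order was A30, A24, A7 and A26, with A8 next. The log2 fold changes were 5.93 for Tnnt3 (SE 1.60), 5.33 for Tnni2 (SE 1.45) and 4.48 for Tnnc2 (SE 1.29), with limma adjusted p of 0.216, 0.216 and 0.219.

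The slow troponin T gene departed from that order. Tnnt1 was at 2.26, 1.47, 1.23, 1.17 and 0.634 TPM in wild-type scWAT, against 1.60 (A24), 3.25 (A26) and 34.1 TPM (A30). A30 alone was far above the rest, and A24 lay within the wild-type range. Tnnt1 had the lowest ratio of A24 to A30 of the 34 members tested in scWAT, 0.0468. Slow genes did not all share this, since Mybpc1, the slow myosin-binding protein C, had a ratio of 0.521, near the median of 0.546. Other slow fiber genes, listed with the cardiac isoforms, had A30 and A24 values of 9.13 and 0.420 TPM for Myh7, 16 and 1.32 TPM for Tnni1, 31.7 and 3.79 TPM for Tnnc1 and 89.1 and 9.81 TPM for Myl2 (Myh7 and Tnni1 were chosen after their values were seen). Of the 10 genes on that list, 0 passed and 6 were higher at an unadjusted p under 0.05 (limma), where 8.11% of all genes were, with a median log2 fold change of 1.74. Without A26, 4 of the 10 passed (Actn2, Myl2, Myl3 and Myoz2), where 0.923% of all genes were called higher. Over A24 and A30 their log2 fold changes were 3.29 for Actn2 (SE 0.325), 4.71 for Myl2 (SE 0.686), 2.98 for Myl3 (SE 0.502) and 3.10 for Myoz2 (SE 0.485). The genes printed by library are a part of the list, so they do not show that slow fiber genes in general were low in A24.

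Filament and Z-disc members were high in A30 and A24 without exception. Actn3, the fast fiber actinin of the Z-disc, was at 0.410, 20.7, 0.313, 0.0647 and 0.0603 TPM in wild-type scWAT, against 117 (A24), 7.67 (A26) and 213 TPM (A30). Myoz1, which tethers calcineurin to the Z-disc, was at 0.375, 16.5, 1.55, 0 and 0.144 TPM, then 81.7, 4.94 and 164 TPM, in that order. Mybpc2, the fast myosin-binding protein C, was at 0.448, 11.8, 0.201, 0.00847 and 0 TPM in wild-type scWAT, against 50.9 (A24), 3.80 (A26) and 86.3 TPM (A30). For these genes A7 was above A26, and A26 above the other wild-type libraries. Mybpc1, the slow form of the same protein, was instead higher in A8 than in A7, at 0.299, 1.56, 2.04, 0.307 and 0.0476 TPM in wild-type scWAT and 27.6, 0.511 and 53.0 TPM in A24, A26 and A30.

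The giant thin filament protein gene Neb was at 2.96, 3.51, 2.48, 1.29 and 0.768 TPM in wild-type scWAT, against 24.1 (A24), 1.87 (A26) and 33.6 TPM (A30), with A26 inside the wild-type range. Tmod4, which caps thin filaments, was at 0.633, 4.30, 1.51, 0.152 and 0.266 TPM, then 15.5, 1.92 and 42.9 TPM. Myot, a Z-disc protein gene, was at 0.0444, 1.98, 0.345, 0.0306 and 0 TPM, then 21.9, 0.866 and 39.7 TPM. Klhl41, a stabilizer of thin filament proteins, was at 0.190, 1.85, 0.714, 0.0327 and 0.0838 TPM, then 11.2, 0.745 and 28.7 TPM. Lmod3, a filament nucleator, and Myoz3 were lower, reaching 8.62 and 4.31 TPM in A30. All 10 genes of this group had higher means in the libraries labelled knockout, with log2 fold changes of 1.5 to 4.81, and 0 passed (limma).

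Triad and calcium genes were led by the fast calcium pump and by parvalbumin. Atp2a1, the pump that returns calcium to the reticulum in fast fibers, was at 1.73, 39.2, 3.06, 0.118 and 0.154 TPM in wild-type scWAT, against 306 (A24), 12.5 (A26) and 483 TPM (A30). Pvalb, the fast fiber calcium buffer, was at 2.76, 111, 2.26, 1.98 and 1.12 TPM in wild-type scWAT, against 376 (A24), 21.7 (A26) and 809 TPM (A30). Casq1, the calcium store of the reticulum, was at 4.21, 17.9, 1.36, 2.71 and 2.56 TPM, then 50.4, 2.08 and 108 TPM, with A26 inside the wild-type range. The ubiquitous pump gene Atp2a2 was at 47.1 to 81.7 TPM in all 8 libraries, so Atp2a1 was above it in A24 and A30 alone.

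The release unit itself was lower in abundance. Ryr1 was at 0.315, 0.770, 0.337, 0.141 and 0.378 TPM in wild-type scWAT, against 8.93 (A24), 0.609 (A26) and 9.78 TPM (A30), so that A24 nearly equalled A30. Jsrp1, a triad protein that contacts both the voltage sensor encoded by Cacna1s and calsequestrin, was at 0.404, 3.09, 0.202, 0.190 and 0.407 TPM, then 27.2, 1.36 and 36.9 TPM. Stac3, an adaptor of the voltage sensor, was at 0.395 to 2.51 TPM in wild-type scWAT and reached 14 TPM in A24 and 15.6 in A30, and Cacng1, a channel subunit, reached 4.98 and 9.12 TPM against 0.0747 to 0.997 TPM. Jph1, the junctophilin that bridges tubule and reticulum, did not follow: it was at 4.16, 4.5, 2.96, 6.53 and 2.97 TPM in wild-type scWAT, against 4.76 (A24), 0.647 (A26) and 8.86 TPM (A30). Its log2 fold change was -0.16 (SE 0.510), the only negative one among the 34 tested members, and it turned to 0.57 without A26.

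Cacna1s, Asb2 and Capn3 were the members whose groups did not overlap. Cacna1s, the voltage sensor, was at 0.234, 1.01, 0.184, 0.107 and 0.193 TPM in wild-type scWAT, against 10.5 (A24), 3.91 (A26) and 18.1 TPM (A30). Asb2, a SOCS box protein that directs muscle proteins to degradation, was at 0.363, 3.01, 0.432, 0.446 and 0.692 TPM in wild-type scWAT, against 14 (A24), 3.76 (A26) and 10.6 TPM (A30). Capn3, a titin-bound protease, was at 0.215, 0.293, 0.341, 0.215 and 0.0356 TPM, then 2.88, 2.48 and 3.50 TPM. A26 was close to A24 and A30 for Capn3 and well below them for most members, and it also exceeded all 5 wild-type libraries for Tnnt1. Their log2 fold changes were 2.97 (SE 0.419, adjusted p = 0.0692), 2.38 (SE 0.465, adjusted p = 0.202) and 1.69 (SE 0.240, adjusted p = 0.0692) for Cacna1s, Asb2 and Capn3 (limma). Over all genes tested, groups did not overlap in 5.23% in the higher and 5.06% in the lower direction, and 3 of 34 members is near that share.

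The remaining genes of this role group, Ampd1 (AMP deaminase of muscle), Asb5 and Smtnl1, were at 38.0, 15.4 and 5.4 TPM in A30 and at 20.7, 5.34 and 3.45 TPM in A24. Their highest wild-type values, all in A7, were 3.33, 1.11 and 0.425 TPM, and A26 held 1.63, 0.621 and 0.196 TPM.

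Across all members, 34 of 36 passed the filter of a mean of 1 TPM over the 8 scWAT libraries, while Myh8 and Myh3 did not. No member passed limma's adjusted threshold of 0.05, where 0.0146% of 13682 genes were called higher and 0.00731% lower. Before adjustment, 32 members were higher at p under 0.05 and 0 lower, where 8.11% and 7.52% of all genes were, and the median log2 fold change was 2.83 over the members and 0.03 over all genes. Because many members passed the filter through A24 and A30 alone, these counts say little by themselves. Of the 17 members with a wild-type mean of 1 TPM or more, 15 were higher at that unadjusted p, where 7.05% of the 13128 genes tested with such a mean were. With no filter, 30 of 36 members were higher and 0 lower before adjustment (6.98% and 5.01% of 23677 genes), and 1, Capn3, passed the adjusted threshold (0.0211% higher, 0.00422% lower).

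The count of members called turned on single libraries. Without A26, 26 of 34 members passed, all higher, where 0.923% of 13430 genes were called higher and 0.0447% lower, and the members' median log2 fold change was 3.83. The 8 that did not pass were the 4 troponins, Myh4, Mylpf, Pvalb and Jph1. Of the fits that left out a scWAT library, the one without A26 gave the most members called. All calls reported without A26 depend on that choice and are not a separate test. Without A30, 1 of 29 members (Cacna1s) passed, where 0.3% of 13669 genes were called higher and 0.249% lower, and without A24 0 of 32 did, where 0.0586% of 13653 genes were called higher and 0.0146% lower. Leaving out A7, the high wild-type library, gave 0 called (0.0146% of all genes higher, 0% lower) and 32 higher and 0 lower before adjustment (6.39% and 5.26%). Among the 5 libraries whose tables carry no genotype in the name (A7, A8 and A12 against A26 and A30), 0 members were called (0% of all genes in either direction) and 4 were higher before adjustment (3.26% higher and 3.18% lower over all genes). The other 3 libraries hold a single library labelled knockout and gave no test.

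**Figure D4:**
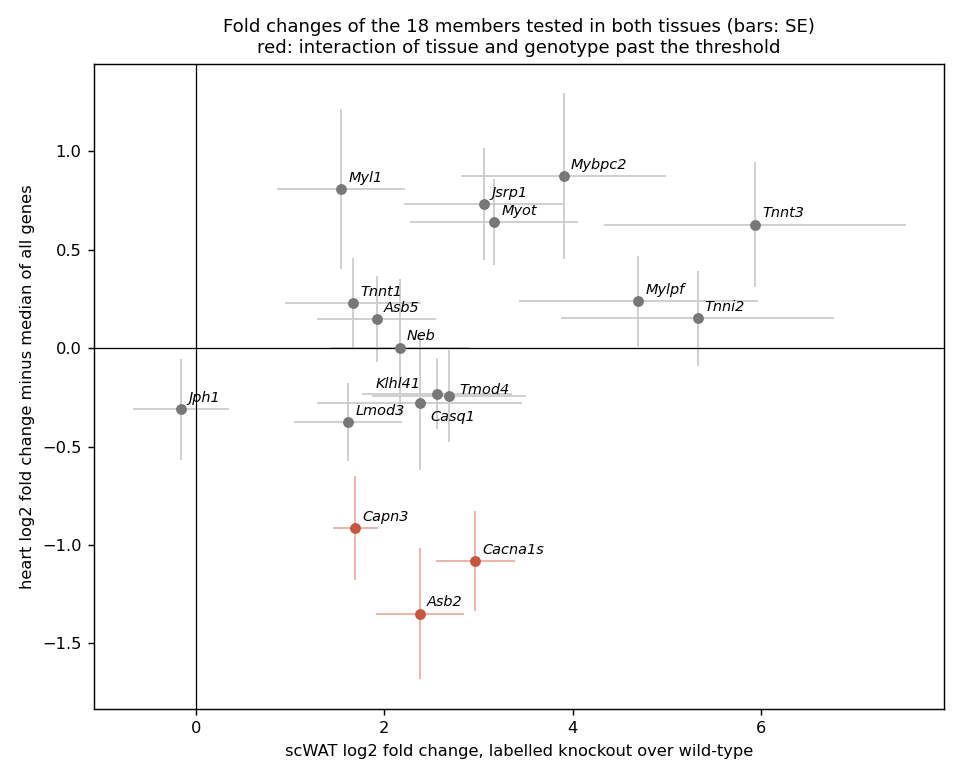
Log2 fold change of each tested member, labelled knockout minus wild-type, in scWAT (horizontal axis) and in heart after subtracting the all-gene median of 0.26 (vertical axis), on the log2(TPM + 1) scale. Bars are SE, and red marks members past the threshold for the interaction of tissue and genotype. All but Jph1 lie to the right of 0 in scWAT, and the red points Cacna1s, Capn3 and Asb2 are the lowest in heart.

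The ratio between libraries varied from member to member. Against A30, A24 had a median ratio of 0.546 over the 34 tested members, with quartiles of 0.466 and 0.711. Tnnt1 was the lowest, and Myh2 (1.62) and Asb2 were the only 2 above 1. The ratio of A7 to A30 had a median of 0.0916, from 0.0145 for Myh1 to 0.508 for Jph1, and that of A26 to A30 a median of 0.0377, from 0.00217 for Myh2 to 0.709 for Capn3. A30 was highest for 32 of 34 members and A24 for the other 2, A7 was the highest wild-type library for 28 and was above A26 for 30. Over members, log2(TPM + 1) correlated at Pearson r = 0.963 between A24 and A30, 0.950 between A7 and A30, 0.945 between A7 and A26, 0.896 between A26 and A30 and 0.868 between A24 and A26. Among the low wild-type libraries it was as high, at 0.960 between A12 and A14, 0.951 between A5 and A14 and 0.944 between A5 and A12. The lowest of the 28 pairs was A12 with A24, at 0.402. Members are not independent points, so these values describe the libraries only.

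**Figure D5:**
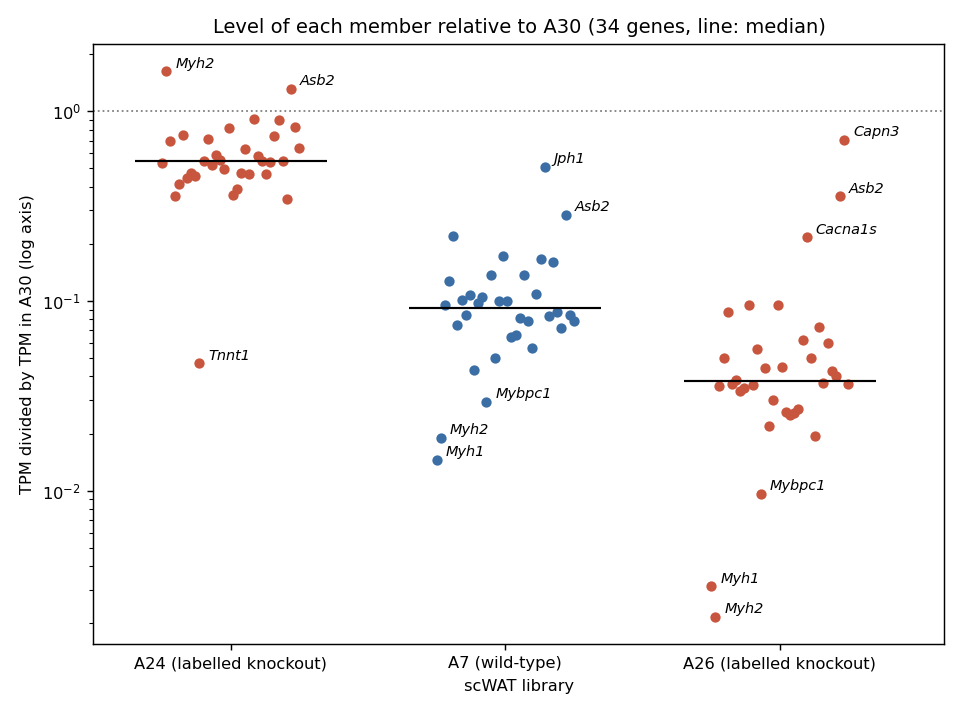
Ratio of A24, A7 and A26 to A30 for each of the 34 members tested in scWAT, on a log axis, with a line at each median. A24 points lie around 0.546 with Tnnt1 far below, A7 points lie around 0.0916 and A26 points around 0.0377 with Capn3 as the highest.

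Genes outside the 36 varied alongside them. Among the 10528 genes whose scWAT mean reached 5 TPM, those most like the mean log2(TPM + 1) of the members over the 8 libraries were Pygm (muscle glycogen phosphorylase, r = 0.997), Eef1a2 (0.996), Apobec2 (0.992), Acta1 (skeletal actin, 0.991), Tcap (0.989), Pgam2 (0.986), Srl (0.986), Mylk4 (0.986), Tpm1 (0.985) and Cox6a2 (0.985). Pygm was at 2.19, 18.6, 3.11, 1.05 and 1.44 TPM in wild-type scWAT, against 103 (A24), 6.52 (A26) and 169 TPM (A30). On the list of striated muscle genes shared by skeletal muscle and heart, 0 of 18 tested passed and 17 were higher at an unadjusted p under 0.05 (limma), where 8.11% of all genes were, with a median log2 fold change of 2.53. Acta1, Ckm (muscle creatine kinase) and Tpm1 reached 1787, 1233 and 1053 TPM in A30. Without A26, 16 of the 18 passed, where 0.923% of all genes were called higher.

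Markers of other cell types were read beside these values. Of the myogenic regulators, Myf6, the one that stays on in mature fibers, was at 8.82 TPM in A30, 4.01 in A24, 0.562 in A7, 0.358 in A26 and 0 in the other 4 libraries. Myod1, Myog, Myf5 and the satellite cell gene Pax7 were under 1 TPM in all 8. The cardiomyocyte genes Myh6 (0 in 5 of 8 libraries) and Myl7 (0 in all 8) were at or near 0, and the cardiomyocyte list summed to 2.18 to 8.65 TPM. Tnni3, the 1 gene of that list tested in scWAT, had a log2 fold change of 0.76 (SE 0.330). Its limma p was 0.0460 before and 0.310 after adjustment, and its log2 fold change was 0.43 (SE 0.306) without A26. White adipocyte genes summed to 5.26% to 7.81% of TPM in all 8 libraries. B and T cell genes summed to 1711 TPM in A26 and to 15.2 to 30 TPM in the other 7, peripheral nerve genes to 165 TPM in A24, 82.1 in A30 and 27.6 to 64.8 elsewhere, and thermogenic adipocyte genes to 1175, 948 and 524 TPM in A26, A30 and A24 and 146 to 589 TPM in wild-type scWAT. The thermogenic list is not particular to adipocytes. Between wild-type tissues, 5 of its 6 tested genes were higher in heart and 1 lower (limma), where 8.12% of all genes were higher. Fabp3 was higher in heart by a log2 difference of 10.6, while Cidea was the 1 gene lower (-1.26), and Ucp1 and Elovl3 were not tested between tissues. The sum of the list therefore mixes genes that are high in heart with genes that are not. Of 9 thermogenic genes tested in scWAT 1, Fabp3, passed (limma). At an unadjusted p under 0.05, 7 were higher and 0 lower, where 8.11% and 7.52% of all genes were. The log2 fold changes were 5.05 for Ucp1 (SE 0.776), 2.84 for Elovl3 (SE 0.678) and 1.70 for Cidea (SE 0.484), with limma adjusted p of 0.0994, 0.216 and 0.219. On the regulator, neuromuscular junction, cardiomyocyte, white adipocyte, B and T cell, smooth muscle, epidermal, mammary, nerve and tendon lists, 0 passed. Without A26, Myf6 passed as 1 of 2 regulators tested (log2 fold change 2.68, limma adjusted p = 0.00811), and Fabp3 and Ucp1 passed as 2 of 9 thermogenic genes. Smooth muscle genes summed to 101 to 475 TPM over the 8 libraries, epidermal genes to 2.39 to 13.1 TPM, mammary genes to 0.919 to 7.79 TPM and tendon genes to 3.03 to 12.2 TPM. The part of these cells in the members' values was not tested.

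In heart, 14 to 17 of the 36 members reached 1 TPM in a library, against 8 to 26 in wild-type scWAT and 34, 21 and 35 in A24, A26 and A30. Their summed TPM was 275 to 439.9 in wild-type hearts and 351 to 451 in hearts labelled knockout, and 18 of 36 passed the filter. The fast myosins Myh4, Myh1 and Myh2 were at most 0.0139 TPM in any heart. The A30 mouse, whose scWAT held the most, had 451 TPM in heart, the highest of 8 by a small margin over A8 at 439.9. Asb2, Myl1, Lmod3, Klhl41 and Myot were the members with the highest wild-type levels, at 119 to 211, 39.6 to 62.7, 30.7 to 46.9, 23.7 to 29.5 and 20.2 to 35.4 TPM.

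Between wild-type heart and wild-type scWAT, 22 members were tested. Asb2, Asb5, Cacna1s, Klhl41, Lmod3, Mybpc2, Myot, Tmod4 and Tnnt1 (9) were higher in heart, and Myl1, Mylpf, Pvalb, Tnnc2 and Tnnt3 (5) were lower (limma adjusted p under 0.05), where 8.12% of 13093 genes were higher and 78.5% lower. The all-gene median was -1.27 log2. Mitochondrially encoded transcripts took 51.9% to 60.6% of TPM in wild-type heart and 6.14% to 14.4% in wild-type scWAT, and without them the median was -0.43. Asb2 had the largest difference, 6.60 (SE 0.309), and relative to the median 7.86. Lmod3, Myot and Klhl41 were higher by 4.96, 4.41 and 4.30, and Tnnc2 was lower by a log2 difference of -3.66 (SE 0.762, adjusted p = 0.000595). Scaling moved the split: 12 were higher and 1 (Tnnc2) lower with median-of-ratios scaling (34% and 33.3% of all genes), and 11 and 4 without the mitochondrially encoded genes (20% and 48.1%). Neb, at -0.19 as deposited, was at 0.75 and passed with median-of-ratios scaling (limma adjusted p = 0.0103). With the mouse as a replicate block in the 4 mice that gave both tissues, 8 were higher and 9 lower (7.85% and 79% of all genes). With no block but also without A12, which gave scWAT alone, 8 were higher and 7 lower (7.95% and 79%).

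Between genotype labels in heart, no member passed limma's adjusted threshold, where 0.0501% of 11981 genes were called higher and 0% lower. With p not adjusted, 5 of 18 members were higher at 0.05 and 3 lower, where 20.9% and 3.66% of all genes were. The median log2 fold change was 0.33 over the members and 0.26 over all genes, so fold changes in heart are given after subtracting 0.26, while the tests used values before it. The groups did not overlap for Myot and Jsrp1 in the higher direction (3.71% of all genes) and for Cacna1s in the lower (0.634%).

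Jsrp1 was at 0.433, 0.302, 0.457 and 0.375 TPM in the wild-type hearts A5, A7, A8 and A14, and at 2.26, 0.505, 2.57 and 2.31 TPM in A25, A29, A30 and A31. Myot was at 20.2, 35.4, 33.8 and 23.2 TPM, then 58.6, 52.4, 46.4 and 50.5 TPM. Cacna1s was at 4.94, 5.57, 6.53 and 7.57 TPM, then 2.37, 4.81, 3.06 and 2.20 TPM. For Myot A29 stood with the other hearts of its label, and for Jsrp1 and Cacna1s it stood close to the wild-type range. The relative log2 fold changes were 0.73 (SE 0.284) for Jsrp1, 0.64 (SE 0.217) for Myot and -1.08 (SE 0.255) for Cacna1s, each with a limma adjusted p of 0.142.

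A29 was singled out by its values in these same data, which often stood with the wild-type hearts. The p-values of fits without A29 depend on that choice and are not a separate test. Without A29, 8 of 18 members passed in the higher direction (34.8% of 12081 genes did) and 3 in the lower (4.16%). The 8 were the light chains Myl1 and Mylpf, the troponins Tnnt3 and Tnnt1, Mybpc2, Myot, Jsrp1 and Asb5, and the 3 were Asb2, Cacna1s and Capn3. The same 8 and 3 did not overlap between A25, A30 and A31 and the wild-type hearts, where 45.2% and 3.71% of all genes did not. A share of 8 in 18 is near that of all genes, which were themselves mostly higher, with a median of 0.39 that is subtracted below.

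Myl1 was at 39.6, 56.8, 62.7 and 45.6 TPM in the wild-type hearts against 149.8, 137 and 162 TPM for A25, A30 and A31, with 38.3 TPM in A29. Its relative log2 fold change without A29 was 1.16 (SE 0.177, limma adjusted p = 0.000167). Mybpc2 was at 2.68, 4, 4.6 and 4.77 TPM, then 13.8, 17.7 and 11.1 TPM, with 3.06 TPM in A29, a relative change of 1.21 (SE 0.235). These fast isoforms were the members furthest above the all-gene median in heart, and A29 was inside or below the wild-type range for both. Tnnt3 was at 0.128, 0.284, 0.321 and 0.664 TPM, then 1.35, 3.15 and 1.78 TPM, with 0.362 in A29, and its relative change was 0.78 (SE 0.224). Tnnt1, slow troponin T, was at 8.13, 8.86, 10.9 and 9.21 TPM, then 15.7, 14.4 and 15.5 TPM, with 8.87 in A29, a relative change of 0.27 (SE 0.171). For Mylpf and Asb5 the relative changes were 0.25 and 0.13, so most of their fold change was that of the median gene. Mylpf was at 0.888 to 1.11 TPM in wild-type hearts and 1.49, 1.06, 2.61 and 2.25 TPM in A25, A29, A30 and A31, and Asb5 was at 6.66 to 9.28 TPM against 11.1, 8.57, 13.4 and 12.5 TPM.

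Asb2, the most abundant member in heart, did not pass with all 8 hearts (limma adjusted p = 0.142), and its groups overlapped through A29. It was at 119, 211, 207 and 176 TPM in the wild-type hearts against 61.0, 107 and 46.4 TPM for A25, A30 and A31, with 141 TPM in A29. Capn3 was at 1.15, 2.23, 2.12 and 1.58 TPM, then 0.664, 0.407 and 0.435 TPM, with 1.67 TPM in A29. For both genes A25, A30 and A31 were below every wild-type heart and A29 was within their range. Without A29, the relative log2 fold changes were -1.75 for Asb2 (SE 0.289, limma adjusted p = 0.00507), -1.40 for Cacna1s (SE 0.206, adjusted p = 0.00411) and -1.26 for Capn3 (SE 0.188, adjusted p = 0.00563).

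Sums of the marker lists for 3 other cell types were also higher in the same 3 hearts than in the rest. Tendon genes summed to 69.0, 111 and 75.6 TPM in A25, A30 and A31, to 2.96 TPM in A29 and to 2.21 to 4.89 TPM in wild-type hearts. Mammary and glandular epithelium genes summed to 15.6, 23.7 and 19.2 TPM, to 0.289 TPM and to 0.422 to 3.69 TPM in the same order. B and T cell genes summed to 78.5, 74.9 and 102 TPM, to 16.7 TPM and to 12.6 to 39.5 TPM. Few genes of the B and T cell and mammary lists passed the filter in heart, and 3 tendon genes did. Those that passed it were Ccl21a alone of 9 B and T cell genes, Krt18 alone of 6 mammary genes, and Fmod, Scx and Thbs4 of 5 tendon genes. With every heart fitted, the relative log2 fold changes of these genes were 0.94 for Ccl21a, 2.53 for Krt18, 1.87 for Fmod, 1.38 for Scx and 3.48 for Thbs4. Of these genes, 0 passed the adjusted threshold (limma). All but Ccl21a were higher at an unadjusted p under 0.05, where 20.9% of all genes were. Without A29, a choice made from these data, all of them passed in the higher direction, where 34.8% of all genes did. The sums also hold genes that were not tested, and the abundance of those cell types was not tested. The part of such cells in the members' values was not tested.

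For other members the ranges in heart overlapped. Lmod3 was at 30.7 to 46.9 TPM in wild-type hearts and 33.0 to 37.0 TPM in those labelled knockout, Klhl41 at 23.7 to 29.5 and 25.4 to 32.7 TPM, Tmod4 at 9.26 to 14.4 and 9.70 to 17.0 TPM, and Jph1 at 2.99 to 6.25 and 3.95 to 5.86 TPM. Their adjusted p was 0.722 or higher, which does not show that the groups are equal.

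Whether the genotype effect was the same in both tissues was asked with a term for tissue by genotype fitted over all 16 libraries. Of 18 members tested, 3 passed, all with a lower effect in heart than in scWAT, and 0 passed in the other direction, where 0.052% of 11536 genes passed in the lower and 0.00867% in the higher direction. They were Cacna1s (-3.79, SE 0.477, limma adjusted p = 0.00268), Capn3 (-2.35, SE 0.312, adjusted p = 0.00356) and Asb2 (-3.47, SE 0.596, adjusted p = 0.0364). All 3 had a wild-type scWAT mean under 1 TPM and reached the filter through the libraries labelled knockout, so this count says little by itself. With no filter 2 passed (Cacna1s and Capn3), where 11 of 25813 genes passed in the lower direction. For these 3 genes every scWAT library labelled knockout was above every wild-type one, and A25, A30 and A31 in heart were below every wild-type heart. The A29 heart was below them for Cacna1s and within their range for Asb2 and Capn3. The count was 12 without the A26 scWAT library (0.774% of all genes lower), 6 without the A29 heart (2.27%) and 1 (Cacna1s) without the A30 scWAT library (0.0434%), and it was 3 with the mouse as a replicate block (0.052%).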

How the data were processed

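RNA from scWAT (8 libraries) and left ventricle (8 libraries) was sequenced, and the genotype, tissue and mouse of each library were taken from the labels. Per the labels' protocols, frozen tissue was extracted with Trizol, and Illumina TruSeq libraries were made from total RNA. The authors deposited 1 table of TPM per library, with a gene symbol and a value per row, per the file headers. The sources used here name no aligner, annotation or genome build. TPM keeps no depth, so no counting error can be given. Libraries of a group came from different mice, so the spread is between animals.

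Values were tested as log2(TPM + 1), with a pseudocount of 1 that understates changes of low genes, using limma 3.58.1 in R 4.3.3 (lmFit, eBayes with trend, 2-sided) on every gene whose mean over the fitted libraries reached 1 TPM (in each tissue for the interaction). P-values were adjusted by Benjamini-Hochberg over all genes tested, with a threshold of 0.05. The code was checked on simulated data. TPM removes neither composition nor mitochondrial content, so heart changes are also given after subtracting the all-gene median. Descriptions were computed in Python 3.11.15 with pandas 2.3.3. Alternatives were other pseudocounts, filters and scalings, array weights, 1 fit over all 16 libraries, the naming of the deposited tables, a replicate block for the mouse, and fits that left out each library. The mouse pairs the tissues by the labels; deviations of the 4 wild-type mice with both tissues correlated at 0.0166 to 0.144 between tissues.

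The members and the companion lists were chosen with earlier results of these data known. Every member could be named. Values per library are given for members with a scWAT mean of at least 5 TPM, for members past the threshold and for all myosin heavy chains and troponins. Up to 4 genes of a companion list, its defining markers at 0, Elavl1 and the 10 genes most like the members were named as well. Values of Asb2, Capn3, Cacna1s, Ryr1, Myot, Klhl41 and Tmod4, and other members under those levels, were added after they were seen. Further genes of the companion lists were added in the same way. Mymk and Mymx of the regulator list were not analysed here.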

Additional observations from a re-analysis of the deposited data

Results flagged for a closer look

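Among the 5 wild-type scWAT libraries, A7 stood apart from the other 4 by a gap test on TPM (a gap to the nearest library that takes most of the group's range). All 6 role sums did so: 38.4 TPM for the myosin heavy chains (0.159 to 3.52 TPM in the other 4), 496 TPM for the light chains and kinase (128 to 206), 433 TPM for the troponins (6.47 to 38.8), 63.5 TPM for the filament and Z-disc genes (1.56 to 9.35), 181 TPM for the triad genes (8.50 to 14.9) and 8.18 TPM for the metabolic and regulatory genes (0.730 to 1.74). The sum over 36 members was 1221 TPM in A7.

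Single members of the contractile groups that stood apart in A7 were Myh4 at 37.2 TPM, Mylpf at 172, Mylk2 at 2.09, Tnnt3 at 214, Tnni2 at 94.5, Tnnc2 at 123, Actn3 at 20.7, Mybpc2 at 11.8, Myot at 1.98, Myoz1 at 16.5 and Myoz3 at 0.746 TPM. In the other groups they were Atp2a1 at 39.2, Pvalb at 111, Cacna1s at 1.01, Cacng1 at 0.997, Casq1 at 17.9, Jsrp1 at 3.09, Ampd1 at 3.33 and Asb2 at 3.01 TPM. Myh2 stood apart in A8 instead, at 0.876 TPM.

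In heart, the wild-type library A5 was low for the triad sum (10.4 TPM) and for Klhl41 (23.7 TPM). Among hearts labelled knockout, A30 was high for the triad sum (18.5 TPM), Neb (5.39 TPM) and Jph1 (5.86 TPM), and A29 was low for Jsrp1 (0.505 TPM). Chance gives such a gap in about 1 in 20 groups if values are normally distributed, which was not checked for TPM. Over 91 groups of values examined, 33 values stood apart, and the members are not independent of each other. The 3 scWAT libraries labelled knockout were too few for the gap test and were not examined.

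The genotype difference differed between heart and scWAT by the interaction term for Cacna1s (log2 difference of -3.79), Asb2 (-3.47) and Capn3 (-2.35), with adjusted p of 0.00268, 0.0364 and 0.00356 (limma). Each had a wild-type scWAT mean under 1 TPM and reached the filter through the libraries labelled knockout.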

How the results depend on the processing

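The number of members called in scWAT was 0 as reported and 0 with other pseudocounts, a filter of 5 TPM, both other scalings and the naming of the tables as a covariate. It was 1 with no filter, 12 with array weights (0.482% of all genes higher) and 22 in 1 fit over all 16 libraries (0.76%), and it ranged from 0 to 26 when each library was left out. In heart it was 0 in all but 2 alternatives, 11 with array weights (43.1% of all genes higher and 22.7% lower) and 0 to 11 when each library was left out (11 without A29). The interaction count of 3 was 0 with a filter of 5 TPM, because Cacna1s, Asb2 and Capn3 have means under 5 TPM in scWAT and were then not tested. It was 2 with no filter and 2 with a pseudocount of 5 (Cacna1s and Capn3 in both), where 11 of 25813 and 7 of 11536 genes were lower. With median-of-ratios scaling it was 2 (Asb2 and Cacna1s), where 19 of 11712 genes were lower. It was 15 with array weights (15.6% of all genes lower) and ranged from 1 to 12 when each library was left out. With the mouse as a replicate block it was 3. Between tissues the count was 14, it was 15 without A12, and it was 17 with the replicate block, which also leaves out A12. That between tissues ranged from 10 to 17 over all alternatives.

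Between genotype labels, directions turned for 5 members, none of them past the threshold, and the cause was not tested. In scWAT, Jph1 (-0.16) came to 0.00034 with a pseudocount of 5 and 0.43 with array weights, and to between -0.72 and 0.57 when a library was left out. In heart, before subtraction of the median, Tmod4 (0.01) was -0.32 with median-of-ratios scaling, -0.16 without mitochondrially encoded genes and -0.19 with array weights, and Klhl41 (0.02) was -0.32, -0.15 and -0.014. Neb was -0.042 with array weights. Leaving out a heart gave -0.080 to 0.40 for Neb, -0.15 to 0.10 for Tmod4, -0.047 to 0.072 for Klhl41, -0.24 to 0.26 for Casq1 and -0.22 to 0.063 for Jph1. Between wild-type tissues, in alternatives added after seeing the data, Neb (-0.19) was at 0.75 with median-of-ratios scaling, where it passed, and at 0.51 without mitochondrially encoded genes. Casq1 (-0.29) was at 0.83 and 0.53, neither past the threshold, and at -0.57 to 0.20 when a library was left out.

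Depth is unknown, so values under 1 TPM carry no counting error, and with 3 scWAT libraries labelled knockout a single one decides the count. Shared sequence limits the myosin heavy chains and Myl1.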
